A study of Stylosanthes guianensis with 6 samples.

Results

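Membrane transporters were examined in leaves of stylo (Stylosanthes guianensis, genotype TF303), a tropical pasture legume, under manganese (Mn) toxicity. The members are 51 unigenes, that is, genes of an assembly made from the reads, of 102864 in all. They comprise every unigene in the study's list of transporters called changed by Mn, apart from 5 that belong to the MATE (DETOXIFICATION), aluminum-activated malate and tonoplast dicarboxylate transporters. Seedlings were grown in nutrient solution and then given MnSO4 for 10 d at 5 μM, the control, or at 400 μM, referred to as Mn toxicity, and leaves were sequenced as 3 libraries per treatment, described as biological replicates. A replicate was a hydroponic box that held several seedlings. Since the list was drawn on the comparison of these same 6 libraries, the differences between treatments are described here and not tested, and the direction of each member was set by how it was chosen. The members were assigned to 7 classes by their best database match, and comprised 12 ABC transporters, 11 ion, 6 sugar, 2 water and 13 amino acid transporters, 4 auxin or WAT1-related transporters and 3 others. Unigene names are given without their shared prefix, TRINITY.

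Transporters set which solutes cross the plasma membrane, the tonoplast around the vacuole and the membranes of the organelles. ATP-binding cassette (ABC) transporters use ATP to move hormones, lipids, secondary metabolites and conjugated toxic compounds. Plant members are sorted into lettered subfamilies, of which B and C are mostly full-size pumps. Some members of C move glutathione conjugates and related compounds into the vacuole, and F lacks the membrane-spanning part altogether. In leaves, sugar and amino acid carriers load the phloem, tonoplast aquaporins let water in and out of the vacuole, and nitrate, potassium, phosphate and sulfate carriers distribute the nutrients that arrive from the root. Excess Mn in plants is commonly stored in vacuoles, by carriers of the CAX and MTP families, while NRAMP carriers move Mn into the cytosol. A search for these and other known Mn carrier families matched 0 of the 51 member descriptions, and the cation/H+ exchangers listed belong to a family (CHX) that is known for potassium and other monovalent cations in Arabidopsis.

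Values are RPKM (reads divided by both the unigene's length in kb and its library's mapped total in M reads) as deposited. The libraries held 31.1 to 37.8 M mapped reads (megareads), and a read was worth 0.0265 to 0.0321 RPKM on a unigene of 1 kb. In 2 of the Mn toxicity libraries, 40 abundant unigenes with uneven levels took 23.6% (replicate 1) and 38.6% (replicate 3) of the reads, against 1.62% in replicate 2 and 0.966 to 1.78% in the controls. RPKM is a share of the mapped reads, so that the other unigenes together have a smaller share in those libraries. The median log2 fold change of the 30913 unigenes tested was -0.20, and the cause of this shift was not tested. Values after median-of-ratios scaling, which brings the median unigene to the same level in every library, are therefore given beside the deposited ones. Markers of leaf or other cell types were not matched, because gene descriptions were used only for unigenes on the study's lists.

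The transporters differed from each other by direction and by abundance together. Under Mn toxicity 32 members had a higher and 19 a lower mean RPKM than in the control. The study's full list of changed genes also held more up-regulated than down-regulated genes, so nothing is read from these counts. The lower members were on the whole more abundant. Their control levels had a median of 15.2 RPKM (range 0.316 to 375), whereas the control levels of the higher members had a median of 0.939 RPKM (range 0 to 59.7). Among all tested unigenes ranked by control level, 12 of the 18 tested members with a lower mean stood above the 75th percentile and 0 below the 25th. Of the 30 tested members with a higher mean, 2 stood above the 75th percentile and 18 below the 25th. Testing required a mean of at least 0.5 RPKM over all 6 libraries. A member with a lower mean therefore needed a control level above 0.5 RPKM, while one with a higher mean could pass through its Mn toxicity libraries. The percentiles are thus partly set by that limit, and how the choice of members bears on the difference in level was not tested. The RPKM summed over the lower members was 1230 ± 10.9 (SD, n = 3) in the control and 490 ± 189 under Mn toxicity, and that of the higher members was 139 ± 2.37 and 301 ± 49.0. All 51 members together held 0.348 to 0.350% of the reads in the control libraries and 0.14 to 0.238% in the Mn toxicity libraries. In leaf samples, fewer cells of a type and less RNA per cell cannot be told apart.

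A mean of at least 0.5 RPKM over the 6 libraries, the limit for testing, was reached by 48 members. With limma on log2(RPKM + 0.5), 7 of them passed both limits, an adjusted p under 0.05 and a log2 fold change beyond 1 either way, as higher and 16 as lower. Over all tested unigenes 2.09% and 3.69% did so, or 5.78% in both directions. Median-of-ratios scaling gave 15 and 15 members, against 4.37% and 3.77% of all tested unigenes, or 8.14% in both directions. The libraries of the treatments did not overlap for 24 members as higher and 17 as lower, where 9.41% and 22.6% of all tested unigenes did not, and after scaling for 28 and 18, against 22.7% and 23.5%. As the members were picked on this comparison, nothing is read from these counts, nor from the overlap described for single members below. The counts that passed the limits also depended on single libraries. With 1 library left out they were 2 higher and 4 lower without control replicate 1 or 2, 2 and 1 without control replicate 3, 2 and 3 without Mn toxicity replicate 1, 5 and 18 without replicate 2, and 18 and 14 without replicate 3. Calls over all tested unigenes, 646 higher and 1141 lower with every library, shifted too. Dropping any control library left 148 to 198 higher, with 141 to 192 lower. Omitting Mn toxicity replicate 1 left 213 higher, with 210 lower. The calls became 802 higher, 4175 lower if replicate 2 was omitted, or 1748 higher, 1100 lower if replicate 3 was. The fall seen on dropping a control library was thus not particular to the members.

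By class, the ABC transporters were the only group in which most members were lower, with 9 of 12, whereas 9 of 11 ion, 4 of 6 sugar, 8 of 13 amino acid and all 7 of the auxin, WAT1-related and other transporters had a higher mean under Mn toxicity. The water class held 1 of each. As the members were chosen on this comparison, these counts of direction describe the listed members only. Median log2 fold changes of the tested members were -1.25 for ABC (n = 11), 0.64 for ion (n = 10), 0.50 for sugar (n = 5), 0.69 for amino acid (n = 13) and 0.88 for auxin and WAT1-related transporters (n = 4), and with median-of-ratios scaling they were -1.01, 0.82, 0.64, 0.86 and 1.06. The 2 water transporters had log2 fold changes of 0.85 and -1.10. Summed over the class, RPKM was 550 ± 4.24 and 244 ± 65.2 (control and Mn toxicity, SD, n = 3) for ABC, 252 ± 1.23 and 108 ± 38.9 for sugar, 293 ± 2.28 and 140 ± 37.4 for amino acid, and 231 ± 12.8 and 220 ± 75.6 for ion transporters. After median-of-ratios scaling the ion sum turned, with 210 ± 6.45 and 230 ± 30.6, while the others stayed lower, with 500 ± 12.4 and 259 ± 38.5 for ABC, 229 ± 6.36 and 113 ± 13.3 for sugar, and 266 ± 8.13 and 148 ± 14.2 for amino acid transporters. Thus the sugar and amino acid sums were lower under Mn toxicity although most of their members were higher, since a few abundant members made up most of each sum.

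**Figure D1:**
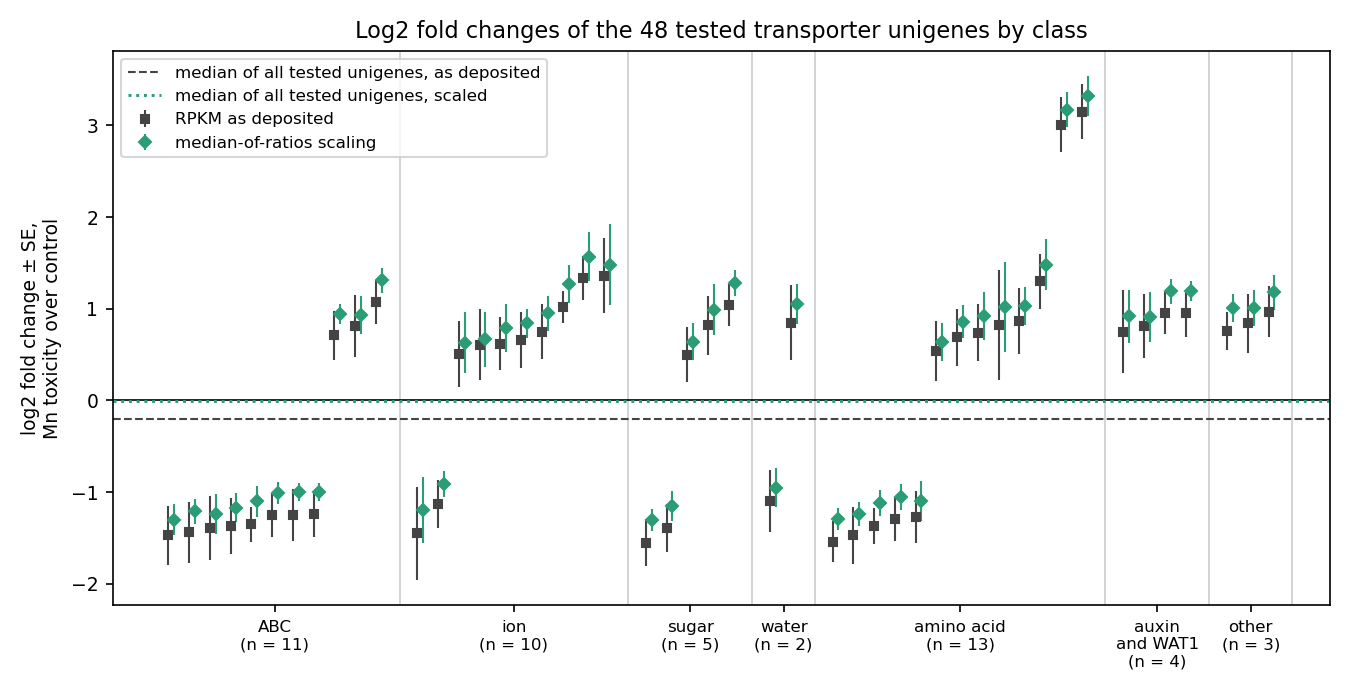
Log2 fold changes (Mn toxicity over control, on log2(RPKM + 0.5), ± SE of limma) of the 48 tested transporters, grouped by class and sorted within it, with RPKM as deposited (grey squares) and after median-of-ratios scaling (green diamonds). Dashed and dotted lines mark the medians of all 30913 tested unigenes. Scaling moves every tested member up and turns the direction of none, and a pair of amino acid transporters stands apart above 3.

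Among the ABC transporters, subfamily F was by far the most abundant. ABC transporter F family member 5 (DN44606_c2_g6), of the soluble subfamily without membrane spans, had 378, 377 and 371 RPKM in the control libraries and 135, 188 and 125 RPKM in Mn toxicity replicates 1, 2 and 3. The treatments did not overlap, and the mean was 2.51-fold lower under Mn toxicity (375 ± 3.58 against 149 ± 33.4, SD, n = 3), with a log2 fold change of -1.35 ± 0.19 (SE). It accounted for 67.9 to 68.6% of the summed ABC RPKM in the control and for 59.3 to 66.0% under Mn toxicity.

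Subfamily C held 5 members, of which 4 were lower. ABC transporter C family member 4-like (DN47265_c0_g3), whose Arabidopsis counterpart acts in guard cells, had 84.8, 83.2 and 85.5 RPKM in the control and 33.6, 54.6 and 23.9 RPKM under Mn toxicity. It was the most abundant of the subfamily, and its mean was 2.26-fold lower, with all Mn toxicity libraries below the control range. The other 3 lower members all had an ABC transporter C family member 8 of another legume as their best nucleotide match. DN45475_c3_g2 had 15.8, 14.9 and 14.9 RPKM in the control and 4.79, 9.13 and 3.34 RPKM under Mn toxicity. DN46918_c1_g1 had 23.9, 23.5 and 23.3 RPKM and then 9.17, 12.6 and 7.64 RPKM. DN46918_c1_g2, assembled in the same Trinity component, had 5.06, 5.2 and 5.56 RPKM and then 1.43, 2.79 and 1.25 RPKM. In all 3 the treatments stood apart, and the means were 2.64-, 2.41- and 2.90-fold lower. The pair of one component differed mainly in level, with a ratio of DN46918_c1_g1 over DN46918_c1_g2 of 4.19 to 4.72 in the control libraries and 4.50 to 6.42 under Mn toxicity. Conversely, ABC transporter C family member 12-like (DN46702_c1_g1) had 5.95, 6.15 and 5.93 RPKM in the control and 9.77, 14 and 7.59 RPKM under Mn toxicity. All 3 Mn toxicity libraries of this member were above the control range, and the mean was 1.74-fold higher.

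Subfamily B, which includes auxin-transporting pumps of the P-glycoprotein type, split. ABC transporter B family member 21-like (DN44659_c0_g1), an auxin carrier in Arabidopsis, had 6.53, 7.01 and 6.69 RPKM in the control and 15.1, 17.8 and 11.9 RPKM under Mn toxicity. On the log2(RPKM + 0.5) scale this was the ABC member with the highest log2 fold change, 1.07 ± 0.24 (SE). The weaker ABC transporter A family member 7 had a larger ratio of means (2.69 against 2.21). The treatments did not overlap for B family member 21-like. ABC transporter B family member 13 (DN42629_c3_g1) instead had 26.6, 24.6 and 26.3 RPKM and then 12.1, 13.3 and 7.41 RPKM. The ABC transporter transmembrane region protein DN43328_c5_g4, a fragment of 715 bp whose nucleotide match was an ABC transporter B family member 2-like gene, had 3.68, 2.76 and 3.15 RPKM and then 1.15, 1.43 and 0.371 RPKM. Both were lower in every Mn toxicity library than in any control library, by 2.36- and 3.25-fold in the means. Over the 3 members, the summed RPKM of the subfamily was 35.8 ± 1.28 in the control and 26.9 ± 6.55 under Mn toxicity (SD, n = 3), while that of the 5 members of subfamily C was 135 ± 1.38 and 65.2 ± 25.3.

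The remaining 3 ABC members had control means of 3.58 RPKM or less. ABC transporter G family member 25-like (DN28803_c0_g1), an exporter of abscisic acid in Arabidopsis, had 3.56, 4.01 and 3.18 RPKM in the control and 1.14, 1.37 and 0.532 RPKM under Mn toxicity, and its log2 fold change of -1.47 ± 0.32 (SE) was the lowest of the ABC class. ABC transporter A family member 7 (DN45173_c0_g4) was higher, with 0.544, 0.297 and 0.513 RPKM and then 1.24, 1.73 and 0.662 RPKM. DN44186_c2_g2, described only as a transporter ABC domain protein with no subfamily, was below the limit for testing, with 0.295, 0.356 and 0.297 RPKM and then 0.0966, 0.0388 and 0.104 RPKM. None of these 3 overlapped between the treatments.

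**Figure D2:**
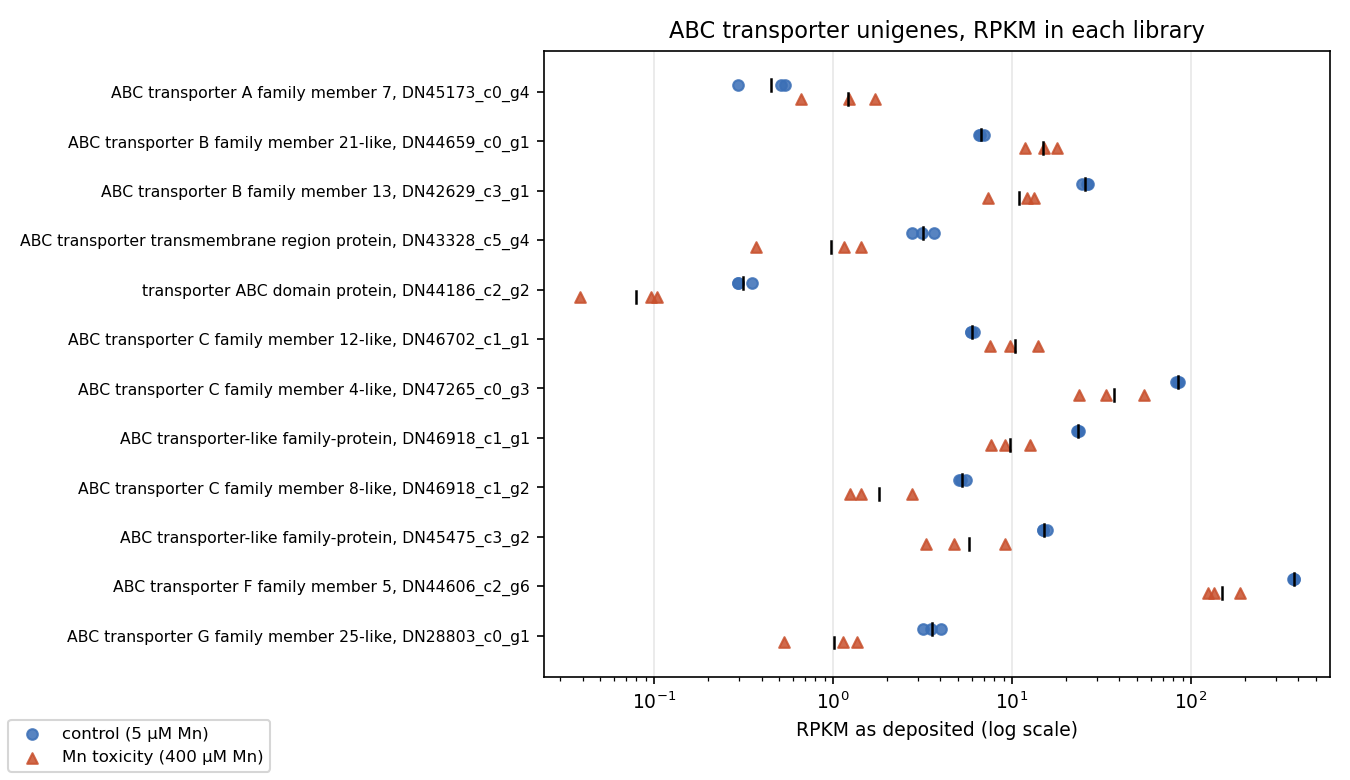
RPKM as deposited of the 12 ABC transporters in each control (blue circles) and Mn toxicity (red triangles) library, on a log axis, with black bars at the means of the 3 libraries. ABC transporter A family member 7, B family member 21-like and C family member 12-like lie to the right of their controls and the other 9 lie to the left, with ABC transporter F family member 5 at the far right.

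Among the ion transporters, the potassium carriers that are members were weakly expressed and had higher means under Mn toxicity. The high-affinity potassium transporter DN39186_c0_g3 had 0, 1 and 2 reads in control replicates 1, 2 and 3 and 100, 15 and 40 reads under Mn toxicity, or 0, 0.0193 and 0.0459 RPKM and then 1.89, 0.296 and 0.757 RPKM. The treatments did not overlap, and allowing for the unequal totals, the reads had a ratio of 48.3 (exact 95% interval 16.2 to 237, for counting error only). Its neighbor in the same component, DN39186_c0_g4, had 0 reads in every control library and 23, 0 and 4 reads under Mn toxicity (1.73, 0 and 0.301 RPKM). Its reads are the smallest whole numbers that its RPKM allow, since the length is not in the files and 2 libraries alone are above 0. Replicate 2 was level with the control, and set against a floor of 3 reads in each control library the mean was at least 2.75-fold higher. Both unigenes had the most reads in Mn toxicity replicate 1. Potassium transporter 5 (DN41948_c1_g3), of the family that takes up potassium when it is scarce, had 0.694, 0.534 and 0.537 RPKM in the control and 1.01, 1.25 and 1.26 RPKM under Mn toxicity, without overlap. Outside the members, potassium channel SKOR (DN43636_c0_g1), named after its values were seen, was more abundant and lower without overlap. Its means were 54.7 ± 1.04 RPKM in the control and 22.0 ± 8.45 RPKM under Mn toxicity (SD, n = 3).

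Both cation/H+ exchangers were higher, to a different extent in different libraries. Cation/H+ exchanger 18 (DN20616_c0_g1) had 0.274, 0.383 and 0.373 RPKM in the control and 1.42, 0.452 and 0.434 RPKM under Mn toxicity. Its higher mean came from replicate 1, as the other 2 libraries were just above the control range and after median-of-ratios scaling replicate 2 fell inside it. Cation/H+ antiporter 18-like (DN43160_c2_g1) had 1.21, 1.27 and 1.15 RPKM and then 1.98, 3.23 and 1.65 RPKM, so that all 3 libraries were above the control with either scaling. The unigene matched to the copper transport protein ATOX1 (DN45349_c0_g1), a chaperone that hands copper to membrane pumps and is not itself a carrier, had 3.86, 3.56 and 3.64 RPKM in the control and 11, 9.10 and 10.3 RPKM under Mn toxicity. All 3 Mn toxicity libraries were above the control, close together as deposited and wider apart after scaling (11.2, 7.05 and 16.4 RPKM), and the mean was 2.75-fold higher as deposited (log2 fold change 1.34 ± 0.24, SE).

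For nitrogen, both members of the nitrate systems had a higher mean and the ammonium transporter a lower one. High-affinity nitrate transporter 3.1-like (DN18332_c0_g1), a partner protein that nitrate transporters of the NRT2 family need, was the most abundant of all members with a higher mean. It had 59.1, 58.1 and 61.9 RPKM in the control and 117, 131 and 117 RPKM under Mn toxicity, a 2.03-fold higher mean. NRT1/PTR FAMILY 4.6-like (DN48051_c6_g1), a carrier of nitrate and abscisic acid in Arabidopsis, had 1.34, 1.82 and 1.99 RPKM and then 3.74, 3.62 and 2.41 RPKM. Ammonium transporter 3 member 2-like (DN44189_c2_g1) had 7.18, 7.08 and 7.92 RPKM in the control and 2.93, 3.91 and 2.57 RPKM under Mn toxicity, a 2.36-fold lower mean. None of these 3 overlapped between treatments. Among the transporters outside the members, NRT1/PTR FAMILY 1.2-like (DN43969_c0_g3), named after its values were seen, was lower without overlap, with means of 0.776 ± 0.0974 and 0.334 ± 0.157 RPKM (SD, n = 3).

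The phosphate and sulfate carriers each had a library that did not follow the others. Inorganic phosphate transporter 1-7-like (DN43725_c0_g2), of the family of plasma membrane phosphate carriers, had 0.448, 0.406 and 0.302 RPKM in the control and 1.03, 1.59 and 0.259 RPKM under Mn toxicity, with replicate 3 below every control library. After scaling that library reached 0.413 RPKM, against 0.271 to 0.402 RPKM in the controls. The sulfate/bicarbonate/oxalate exchanger DN41861_c2_g12, matched to a sulfate transporter 3.1-like gene, had 164, 143 and 162 RPKM in the control and 48.8, 151 and 24.6 RPKM under Mn toxicity. Replicate 2 lay within the control range as deposited and below it after scaling (117 against 134 to 147 RPKM), and the log2 fold change of -1.45 had the largest SE of the ion members, 0.51. This exchanger was also the most abundant ion transporter in the control.

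The 2 sugar transporters with a lower mean were the most abundant of their class. Bidirectional sugar transporter SWEET14-like (DN41395_c1_g2), of the family that lets sugars leave cells down their gradient, had 180, 175 and 175 RPKM in the control and 55.4, 91.6 and 42.9 RPKM under Mn toxicity. Its log2 fold change of -1.55 ± 0.26 (SE) was the lowest of all tested members on the log2(RPKM + 0.5) scale. Its mean was 2.79-fold lower, and some weaker members had larger ratios, up to 4.01-fold for amino acid permease 6-like. The sucrose transport protein-like unigene DN39405_c0_g1, of the proton-coupled sucrose carriers that load the phloem, had 65.2, 69.3 and 67.3 RPKM and then 20.9, 39.1 and 19.9 RPKM. Neither overlapped between the treatments.

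Of the 4 sugar transporters with a higher mean, 1 reached more than 2 RPKM. UDP-galactose/UDP-glucose transporter 3 (DN39582_c0_g1), which brings nucleotide sugars into the endoplasmic reticulum and Golgi, had 7.26, 6.75 and 6.86 RPKM in the control and 15.2, 17.8 and 12.1 RPKM under Mn toxicity, a 2.16-fold higher mean. Sugar transport protein 5-like (DN41664_c2_g9), of the proton-coupled monosaccharide carriers, had 0.397, 0.688 and 0.973 RPKM and then 1.24, 1.90 and 1.58 RPKM. Inositol transporter 4 (DN46948_c0_g1), a plasma membrane carrier of myo-inositol in Arabidopsis, had 0.619, 0.472 and 0.469 RPKM and then 0.978, 1.24 and 0.670 RPKM. In these 3 the treatments did not overlap, by a small margin for inositol transporter 4. Bidirectional sugar transporter N3-like (DN45273_c0_g1), also of the SWEET family, was below the limit for testing. It had 3, 2 and 4 reads in the control and 57, 10 and 5 reads under Mn toxicity (0.101, 0.0656 and 0.156 RPKM, then 1.83, 0.336 and 0.161 RPKM), so that most of its higher mean came from replicate 1.

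The 2 water transporters are both tonoplast aquaporins, of the TIP family, and lay on opposite sides. Aquaporin TIP1-3-like (DN43375_c2_g6) had 2.77, 2.01 and 2.79 RPKM in the control and 4.66, 9.45 and 2.58 RPKM under Mn toxicity. Replicate 3 lay within the control range as deposited and above it after scaling (4.11 against 1.88 to 2.49 RPKM). The tonoplast intrinsic protein DN47255_c2_g1 had 2.16, 2.59 and 2.17 RPKM in the control and 0.608, 1.5 and 0.498 RPKM under Mn toxicity, with all 3 libraries below the control. The log2 fold changes were 0.85 ± 0.41 and -1.10 ± 0.34 (SE), and neither passed the limits with the deposited RPKM.

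**Figure D3:**
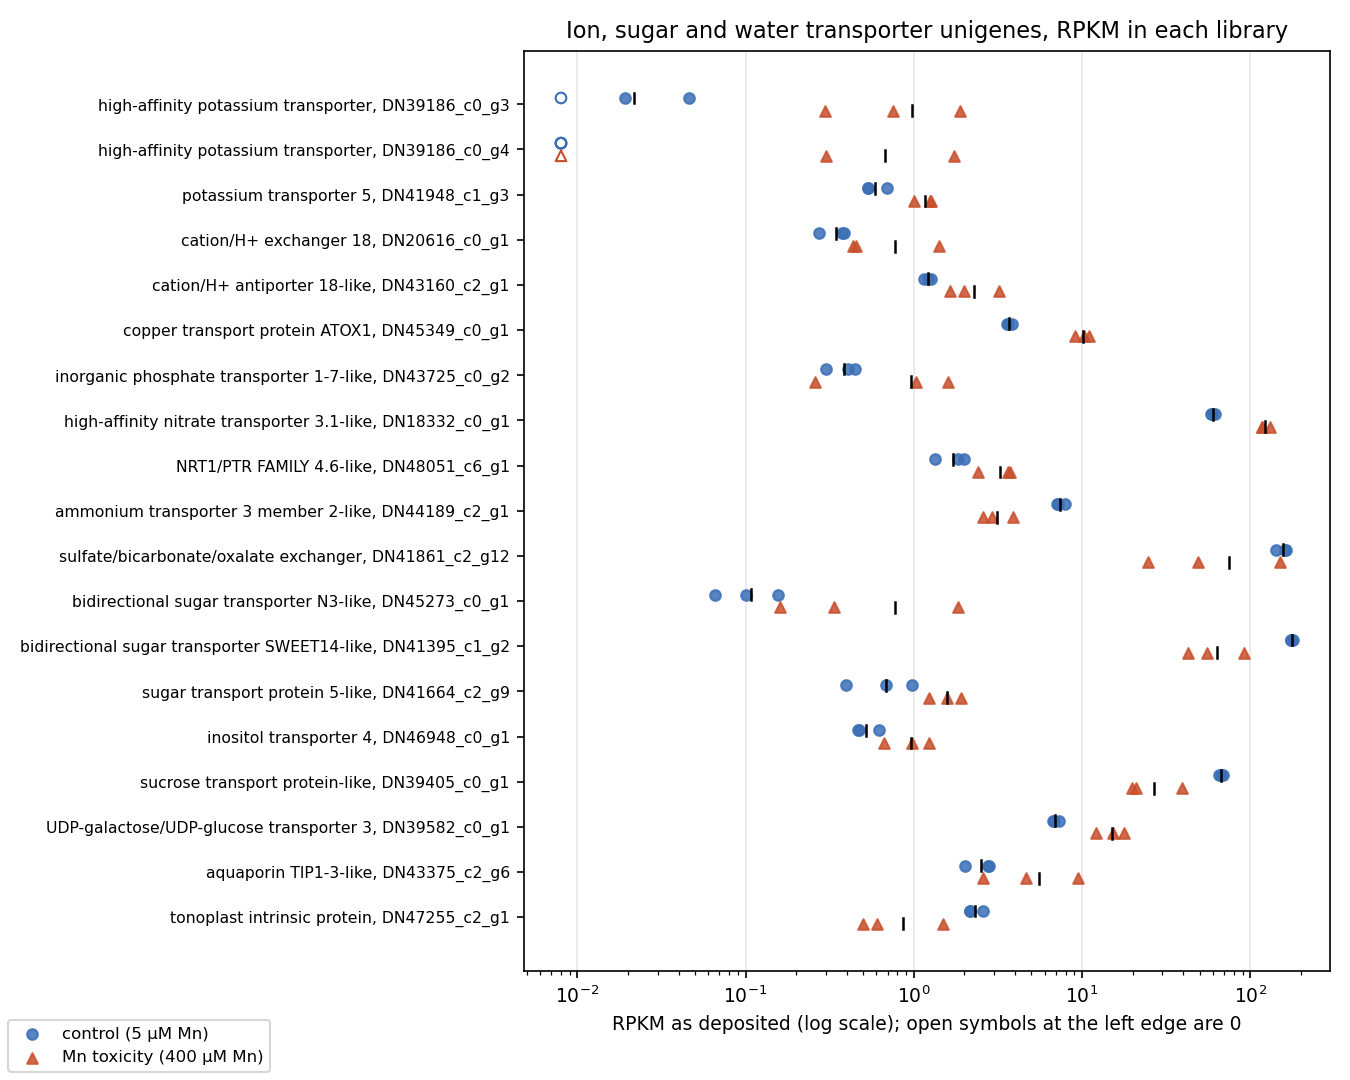
RPKM as deposited of the 11 ion, 6 sugar and 2 water transporters in each control (blue circles) and Mn toxicity (red triangles) library, on a log axis, with black bars at the means and open symbols at the left edge for libraries at 0. The abundant unigenes at the right, the sulfate exchanger, SWEET14-like and the sucrose carrier, lie left of their controls, except replicate 2 of the sulfate exchanger (151 RPKM), while high-affinity nitrate transporter 3.1-like lies to the right.

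The amino acid transporters separated by family. All 5 members matched to lysine histidine transporters, proton-coupled importers of the plasma membrane, had a higher mean, and all 3 matched to amino acid permease 6, of another importer family, had a lower one. On the log2(RPKM + 0.5) scale, which understates the change of the weakly expressed potassium transporter DN39186_c0_g3, the largest fold changes of the tested members belonged to 2 unigenes of one component, both with a lysine histidine transporter-like 8 gene as their best nucleotide match. DN47176_c0_g2 had 0.559, 0.359 and 0.276 RPKM in the control and 6.42, 8.48 and 5.44 RPKM under Mn toxicity. DN47176_c0_g3 had 0.397, 0.834 and 0.388 RPKM and then 8.32, 10.4 and 7.26 RPKM. Every Mn toxicity library of both exceeded every control library, the means were 17.0- and 16-fold higher, and the log2 fold changes were 3.01 ± 0.30 and 3.15 ± 0.30 (SE). The ratio of the first to the second was 0.750 to 0.818 under Mn toxicity and 0.431 to 1.41 in the control, where both were below 1 RPKM. As unigenes of one component may share sequence, reads could be divided between them, and they are not independent.

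The 3 other lysine histidine transporters had smaller differences. Lysine histidine transporter-like 8 (DN47792_c0_g3) had means of 0.646 ± 0.159 RPKM in the control and 2.34 ± 0.548 RPKM under Mn toxicity (SD, n = 3), and lysine histidine transporter 1-like (DN42800_c3_g2) had 0.957 ± 0.151 and 1.89 ± 0.654 RPKM, both without overlap. Lysine histidine transporter-like 6 (DN43939_c2_g5) had 4.26, 3.68 and 4.77 RPKM in the control and 15.1, 14.3 and 1.98 RPKM under Mn toxicity. Its replicate 3 was below every control library, also after scaling (3.16 against 3.45 to 4.27 RPKM), so that its higher mean came from replicates 1 and 2.

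The lower amino acid transporters were again more abundant. The transmembrane amino acid transporter family protein DN42767_c2_g5 had 141, 142 and 141 RPKM in the control and 46.0, 64.8 and 38.0 RPKM under Mn toxicity, the lowest log2 fold change of the class (-1.54 ± 0.22, SE). The control libraries of this member had a coefficient of variation of 0.652%, the smallest of all tested members with a lower mean. Cationic amino acid transporter 2 (DN44456_c1_g1), a tonoplast carrier, had means of 112 ± 1.59 and 43.6 ± 8.98 RPKM (SD, n = 3), without overlap. The 2 amino acid permease 6 unigenes of one component are of equal length (1760 bp) and had nearly equal levels. DN45604_c0_g15 had 13.4, 14 and 14.5 RPKM in the control and 5.19, 6.82 and 4.46 RPKM under Mn toxicity. DN45604_c0_g18 had 14.8, 14.5 and 15 RPKM and then 4.54, 8.30 and 3.27 RPKM. Their ratio was 0.906 to 0.968 in the control and 1.14, 0.822 and 1.36 in Mn toxicity replicates 1, 2 and 3, and in both the treatments stood apart. Amino acid permease 6-like (DN46679_c2_g9) had means of 1.78 ± 0.214 and 0.444 ± 0.0574 RPKM, which at 4.01-fold was the largest ratio among the tested members with a lower mean.

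The 3 remaining amino acid members were weakly expressed. GLUTAMINE DUMPER 5 (DN42248_c4_g4), of a family of small membrane proteins that promote amino acid export in Arabidopsis, had means of 0.920 ± 0.311 and 2.19 ± 0.991 RPKM (SD, n = 3), and the treatments overlapped as deposited but not after scaling. The putative transmembrane protein DN1564_c0_g1, annotated with the same family, had 1.01 ± 0.282 and 2.03 ± 0.556 RPKM. The vacuolar amino acid transporter YPQ1 unigene (DN47641_c0_g4), named after a yeast carrier of basic amino acids, had 0.432 ± 0.0452 and 0.905 ± 0.485 RPKM.

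**Figure D4:**
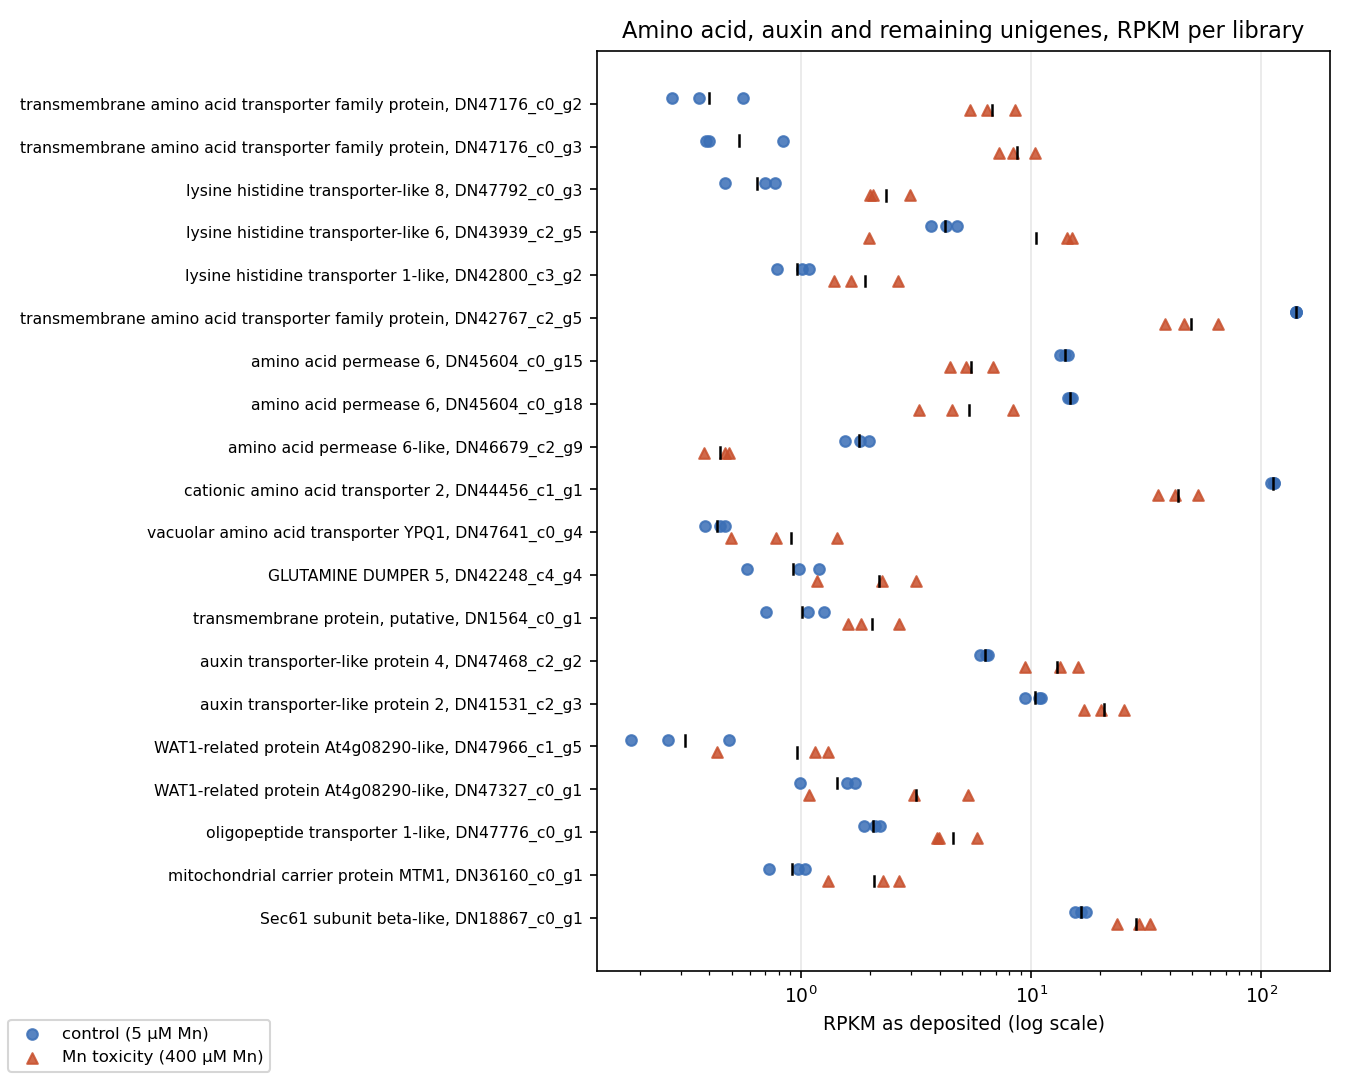
RPKM as deposited of the 13 amino acid, 4 auxin or WAT1-related and 3 other transporters in each control (blue circles) and Mn toxicity (red triangles) library, on a log axis, with black bars at the means. The 2 unigenes of component DN47176_c0 show the widest gap between treatments, and lysine histidine transporter-like 6 has 1 Mn toxicity library (1.98 RPKM) to the left of its controls.

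All 4 auxin and WAT1-related members had a higher mean. Auxin transporter-like proteins belong to the AUX1/LAX importers of auxin, and both were moderately expressed. Auxin transporter-like protein 4 (DN47468_c2_g2) had 6.39, 6.50 and 5.99 RPKM in the control and 13.4, 16 and 9.42 RPKM under Mn toxicity, and auxin transporter-like protein 2 (DN41531_c2_g3) had 10.8, 9.41 and 11 RPKM and then 20.1, 25.4 and 16.9 RPKM. Both had a log2 fold change of 0.95 without overlap, with an SE of 0.26 and 0.23, and 1.19 after scaling. The 2 WAT1-related proteins, relatives of a vacuolar auxin transporter of Arabidopsis, were weaker and overlapped between treatments as deposited but not after scaling, with means of 0.312 ± 0.158 and 0.966 ± 0.469 RPKM for DN47966_c1_g5 and 1.43 ± 0.388 and 3.17 ± 2.12 RPKM for DN47327_c0_g1 (SD, n = 3). Outside the members, the same class held 2 with a higher and 2 with a lower mean. Among the lower was WAT1-related protein At5g07050 (DN44299_c5_g4), named after its values were seen, with means of 2.30 ± 0.287 and 0.855 ± 0.550 RPKM.

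The last 3 members also had higher means without overlap. Oligopeptide transporter 1-like (DN47776_c0_g1), of a family that moves small peptides and metal chelates, had 1.88, 2.2 and 2.09 RPKM in the control and 3.90, 5.79 and 3.98 RPKM under Mn toxicity, the highest log2 fold change of this class (0.97 ± 0.28, SE). Mitochondrial carrier protein MTM1 (DN36160_c0_g1), whose yeast counterpart is needed for the activity of the Mn-dependent superoxide dismutase of mitochondria, had means of 0.910 ± 0.162 and 2.08 ± 0.693 RPKM (SD, n = 3). Its ratio of means, 2.29, was slightly above the 2.22 of oligopeptide transporter 1-like. The Sec61 subunit beta-like unigene (DN18867_c0_g1), part of the channel through which new proteins enter the endoplasmic reticulum, had 16.5 ± 0.901 and 28.6 ± 4.66 RPKM.

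Variation between libraries of one treatment is given as a description, because the adjusted p by which the members were chosen also depends on it. In the control, the coefficient of variation of the 48 tested members had a median of 9.47%, and that of all 30913 tested unigenes 9.51%. Under Mn toxicity the medians were 30.4% and 37.9% as deposited, and 19.9% and 22.7% after scaling. The members with a lower mean were steady in the control, with a median of 3.82% (n = 18), and varied by 40.2% under Mn toxicity, or 18.1% after scaling. Those with a higher mean, which had fewer reads, varied by 17.0% (n = 30) in the control and 28.4% under Mn toxicity, or 21.4% after scaling. As deposited, Mn toxicity replicate 2 was the highest of its treatment in 38 of the 48 members (79.2%) and replicate 3 the lowest in 40 (83.3%), near the shares over all tested unigenes (80.5% and 82.4%). All 18 lower members had their highest value in replicate 2, the library without the large share of abundant uneven unigenes. After scaling this order was not kept. The highest library was replicate 1, 2 and 3 in 9, 13 and 26 members (18.8%, 27.1% and 54.2%), against 28.3%, 29.6% and 42.0% of all tested unigenes. The lowest was replicate 1, 2 and 3 in 35.4%, 41.7% and 22.9% of members, against 28.3%, 33.4% and 38.3%.

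**Figure D5:**
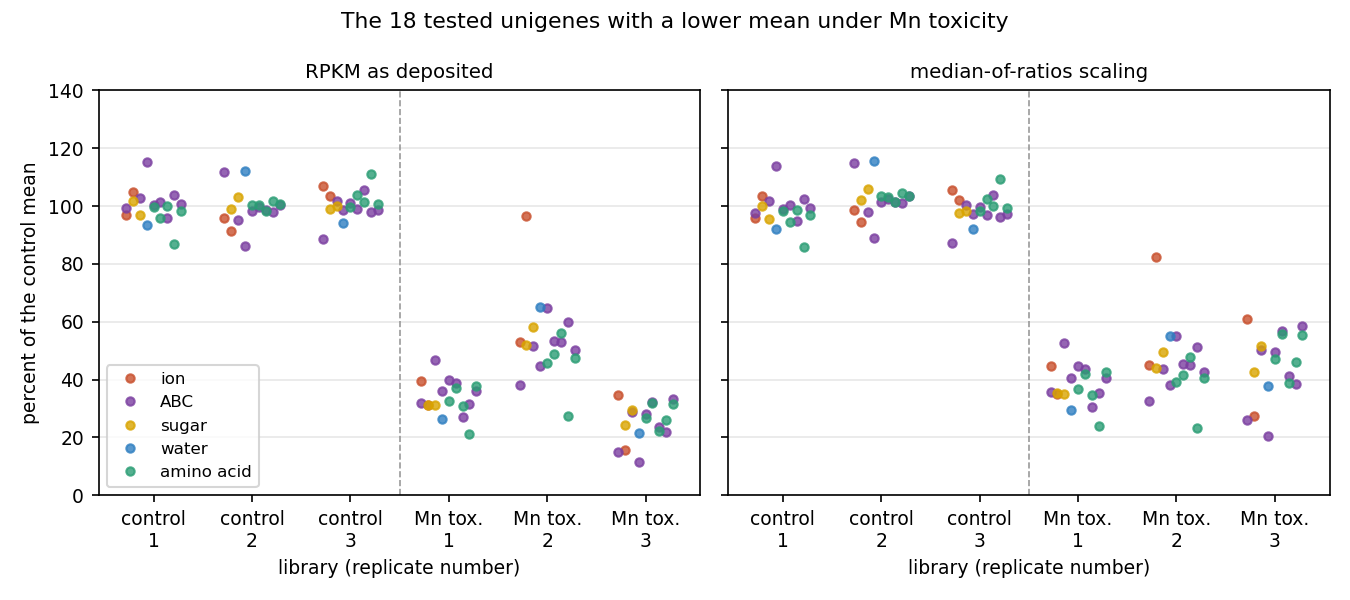
Level in each library, in percent of the control mean, of the 18 tested transporters with a lower mean under Mn toxicity, colored by class, with RPKM as deposited (left) and after median-of-ratios scaling (right). Points are single unigenes, spread sideways for clarity. As deposited, replicate 2 is the highest Mn toxicity library for all 18, while after scaling the 3 libraries lie at similar heights, and the sulfate exchanger stands out in replicate 2.

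A further 33 transporters and channels outside the members were found in the part of the study's full list of changed genes that was used here, and they too had been chosen on this comparison. Among them 19 had a higher and 14 a lower mean under Mn toxicity. Of the 31 that were tested, 4 passed the limits as higher and 8 as lower (8 and 12 after scaling). Over all tested unigenes 2.09% and 3.69% did so, and 4.37% and 3.77% after scaling. Since these transporters were picked on this comparison, nothing is read from the counts. Their ion transporters and channels leaned the other way from the member ions, with 8 of 12 lower and a median log2 fold change of -1.23, against 9 of 11 higher and 0.64 among the members, a difference that was not tested. Those 8 were mainly calcium pumps and cation channels, and the lowest was the ion channel POLLUX-like 2 unigene DN44206_c0_g3, with 7.25, 6.84 and 7.60 RPKM in the control and 2.29, 2.60 and 0.934 RPKM under Mn toxicity. POLLUX-like 2 was also the lowest of all 31 tested transporters outside the members. Next among these 31 came inositol transporter 2 (DN46869_c4_g2) and auxin efflux carrier component 3-like (DN47162_c2_g1), both with a log2 fold change of -1.44. The latter, an auxin exporter, had means of 138 ± 1.99 and 53.7 ± 23.5 RPKM (SD, n = 3), while auxin efflux carrier component 1b (DN44630_c5_g2), named after its values were seen, had 0.511 ± 0.132 and 1.11 ± 0.705 RPKM.

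The highest of these 33 were protein WALLS ARE THIN 1-like (DN47920_c0_g1), mitochondrial phosphate carrier protein 3 (DN46288_c1_g5) and a mitochondrial carrier protein (DN47471_c3_g3), with log2 fold changes of 1.36, 1.29 and 1.22. The first had 2.91, 2.18 and 3.47 RPKM in the control and 16.5, 14.2 and 1.97 RPKM under Mn toxicity, with replicate 3 below the control as deposited and, after scaling, just above it (3.15 against 2.04 to 3.11 RPKM). A unigene of the ZIP zinc transporter family (DN47638_c0_g6), a family that also carries Mn, was the only one in that list from the Mn carrier families searched. It was chosen for mention after its values were seen, and had 0.158, 0.192 and 0.183 RPKM in the control and 1.83, 1.5 and 0.113 RPKM under Mn toxicity, with replicate 3 below the control as deposited and level with its highest library after scaling (0.18 against 0.142 to 0.18 RPKM).

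The study's list was drawn with DESeq2 at the same limits of 0.05 and 1. By the ratio of means after median-of-ratios scaling, the members nearest to that limit were ammonium transporter 3 member 2-like (-0.99), ABC transporter C family member 12-like (1.01), ABC transporter C family member 4-like (-1.01) and ABC transporter B family member 13 (-1.03). Unigenes just outside it could not be named as transporters, because no descriptions of them were used here.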

How the data were processed

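Leaf RNA of 6 libraries, 3 per treatment, was sequenced by the authors, who assembled the reads with Trinity, mapped them with Bowtie2 2.2.3 and estimated abundance with RSEM, in a version that the sources used here do not give. The RPKM values were deposited by the authors in 1 table per library, with no scaling between libraries stated. The sample labels give Mn in mM and the series design in μM, which was used.

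The members and lists were chosen with earlier results of these data known. Read numbers were recovered in Python 3.11.15 from the steps of low values (tolerance 0.002 reads), using the shortest length that fits, and amounted to 99.63 to 99.78% of the mapped reads. They served for read numbers, for floors and for the voom alternatives. Intervals and floors cover counting error only.

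The comparison used limma (3.58.1, under R 4.3.3) and log2(RPKM + 0.5), which understates changes of weakly expressed unigenes, with an intensity trend, no block and p-values adjusted by Benjamini-Hochberg across 30913 unigenes, those averaging at least 0.5 RPKM. P-values set the difference between treatments against the spread between libraries of the same treatment. The procedure was tested on simulated data. For the comparison, the simulated libraries shared a common composition apart from the changes put in. That test therefore does not cover the abundant uneven unigenes seen here, or changes in weakly expressed unigenes. Alternatives covered pseudocount, filter, scaling, trend, block, voom and each library left out. Every member is accounted for, with each library's value for the ABC, ion, sugar and water members, for pairs of one component and for the largest log2 fold change in each direction of the other classes. Of the other listed transporters, the 3 largest in each direction among those tested were named, and any others named were picked after their values were seen. No sequences were used here.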

Additional observations from a re-analysis of the deposited data

How the results depend on the processing

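The counts of transporters passing the limits depended on the scaling and on single libraries. The direction of each tested member was the same in all 24 alternatives it was fitted in. As the members were chosen by their difference in these same libraries, nothing is read from that. Against 7 members higher and 16 lower, median-of-ratios scaling gave 15 higher, quantile normalization 14, an equal sum of RPKM 2 higher and 10 lower, limma voom with median-of-ratios scaling 25 higher, no filter 10 lower, and the library totals without the abundant uneven unigenes 20 higher and 10 lower. Leaving out each library in turn gave 2 to 18 higher and 1 to 18 lower, and together with median-of-ratios scaling 10 to 17 higher and 10 to 15 lower. Counts over all tested unigenes also moved, from 646 higher and 1141 lower. They were 1350 and 1165 with median-of-ratios scaling, 1304 and 1263 with quantile normalization and 289 and 890 with an equal sum of RPKM. Voom with median-of-ratios scaling gave 1687 and 1395, no filter 508 and 768 of 51569, and omitting the abundant uneven unigenes 1730 and 881. With libraries left out they were 148 to 1748 and 141 to 4175, or with median-of-ratios scaling 916 to 1830 and 760 to 1617. For the 33 other listed transporters, against 4 higher and 8 lower, a pseudocount of 0.1 gave 2 higher, no filter 1, median-of-ratios scaling and quantile normalization 8 each, voom with that scaling 12 higher and 14 lower, and omission of the abundant uneven unigenes 10 higher. Leaving out libraries gave 0 to 12 higher and 1 to 13 lower, and with median-of-ratios scaling 6 to 12 (9 without Mn toxicity replicate 1) and 7 to 11. With an equal sum of RPKM limma called 0 of them higher, with 2 higher at an unadjusted p below 0.05, and the counts of 0 with a library left out had 6 or 7 such, while voom with library totals called 4. The omission of abundant unigenes and the scaling combined with left-out libraries were chosen after seeing the data. The replicate numbers do not pair the libraries (same-number correlations of the deviations from the treatment means were 0.075, -0.146 and -0.084), and with the replicate number as a block 8 members were higher and 17 lower, and 6 and 11 of the other listed. Depth limits the weakest members, since 3 reads on 1 kb are 0.0795 to 0.0964 RPKM. The cause of the shifts in counts was not tested. With 3 libraries per treatment an exact permutation test cannot give a p below 0.10.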
